A study of Mus musculus with 2 samples.

Results

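The genes described here make cholesterol, take it up, move it out of the cell, store it as ester or sense its level. They were chosen by name as 33 of the 26582 gene names on the array, and all 33 are accounted for. In the intestine of mice labelled gut-specific Gpcpd1 knockouts, the mean ratios of these genes to mice labelled wild type were small beside their error. No probe of the set passed the test, against 0.275% of all tested probes. At that share most sets of 60 probes would hold none. The mean ratio of every gene, by its brightest probe, was within 1.5-fold. The 95% intervals around these means reached 1.76-fold lower (Insig1) and 1.66-fold higher (Abca1). Of all tested genes, 2.33% reached or passed the lowest mean of the set and 6.71% the highest. The ratios that ran the same way on both arrays were mostly small and mostly lower in the RNA labelled knockout. Lower on both arrays were 14 of the 33 genes (42.4%), against 21.1% of all tested genes. They were led by Insig1 (1.32-fold lower, log2 ratio -0.40 ± 0.08, SD, n = 2) and Fdft1 (1.28-fold lower, -0.35 ± 0.07). Some of the 14 were near 0, such as Nsdhl at -0.01 and -0.02. Only Abca1 (0.31 ± 0.22), Dhcr7 (0.24 ± 0.03) and Tm7sf2 (0.22 ± 0.06) were higher on both arrays (9.09%, against 20.2% of all tested genes). The other 16 genes differed in sign between the arrays (48.5%, against 58.7% of all tested genes).

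The study compared total RNA from the intestine of male mice, 20 weeks old and fed a normal diet, of 2 genotypes. One group is labelled gut-specific GDE5 (Gpcpd1) deficient and the other wild-type. GDE5 is a phosphodiesterase that releases choline from glycerophosphocholine. The labels do not name the promoter that drives the gut-specific deletion, the deleted part of the gene, the stretch of intestine taken or the strain. The series text speaks of 5 mice, and pooling of their RNA is not described. Both genotypes were hybridised together on 2 dual-colour Agilent arrays. Knockout RNA was labelled with Cy3 for replicate 1 and with Cy5 for replicate 2, so that the array and the orientation of the dyes cannot be told apart. No source used here says whether the 2 arrays hold the same RNA extracts, so p-values rest only on differences between 2 hybridisations, which can be technical. With 1 residual and 14.7 prior degrees of freedom, the error used for a probe comes mostly from the spread pooled over all tested probes. Having only 2 arrays limits the precision. In bulk intestine, fewer cells of a type and less RNA per cell cannot be told apart.

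Cholesterol is built from acetyl-CoA. The mevalonate steps give isoprenoid units, which are joined to farnesyl diphosphate and squalene, and squalene is closed to lanosterol and trimmed to cholesterol. When membranes of the endoplasmic reticulum hold little cholesterol, Scap carries the precursors of the SREBP transcription factors to the Golgi, where they are cut free to switch on the enzymes of synthesis. When cholesterol is plentiful, Insig proteins hold Scap back. Oxysterols act on the LXR receptors, which switch on exporters such as Abca1, Abcg5 and Abcg8 and the ubiquitin ligase gene Mylip. In the small intestine, Npc1l1 takes up cholesterol from the gut lumen and Soat2 esterifies it.

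SREBP and its partner factors bind short motifs in front of many of these genes, so the 250 bases before the start of transcription are shown for a few of them, from RefSeq on GRCm38.p6. Insig1 and Msmo1 were among the largest of the genes lower on both arrays, and Hmgcs1 encodes an enzyme of the mevalonate steps. The 3 Cyp51 probes differed in size and 1 of them in sign between arrays, and Abca1 had the highest ratio of the set. Capitals mark matches on either strand to the sterol regulatory element pattern TCACNCCAC, to CCAAT and to the GC box GGGCGG. No 2 marked matches overlap.
Hmgcs1, chr13:119690101-119690350, plus strand: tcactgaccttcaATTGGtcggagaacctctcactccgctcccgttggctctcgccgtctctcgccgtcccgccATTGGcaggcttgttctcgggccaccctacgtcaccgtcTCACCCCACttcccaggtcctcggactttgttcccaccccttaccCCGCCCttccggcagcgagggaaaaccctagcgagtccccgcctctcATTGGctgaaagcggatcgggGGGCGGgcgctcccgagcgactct
Insig1, chr5:28071162-28071411, plus strand: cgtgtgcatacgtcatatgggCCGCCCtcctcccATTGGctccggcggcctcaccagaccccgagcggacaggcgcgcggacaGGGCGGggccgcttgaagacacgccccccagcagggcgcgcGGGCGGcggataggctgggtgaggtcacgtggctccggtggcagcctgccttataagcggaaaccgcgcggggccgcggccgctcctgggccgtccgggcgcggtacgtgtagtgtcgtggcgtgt
Msmo1, chr8:64733579-64733828, minus strand: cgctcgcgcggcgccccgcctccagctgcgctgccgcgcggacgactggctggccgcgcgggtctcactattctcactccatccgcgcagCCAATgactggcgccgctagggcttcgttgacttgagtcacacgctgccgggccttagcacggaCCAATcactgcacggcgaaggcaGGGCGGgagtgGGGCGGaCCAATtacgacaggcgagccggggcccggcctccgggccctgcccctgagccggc
Cyp51, chr5:4104698-4104947, minus strand: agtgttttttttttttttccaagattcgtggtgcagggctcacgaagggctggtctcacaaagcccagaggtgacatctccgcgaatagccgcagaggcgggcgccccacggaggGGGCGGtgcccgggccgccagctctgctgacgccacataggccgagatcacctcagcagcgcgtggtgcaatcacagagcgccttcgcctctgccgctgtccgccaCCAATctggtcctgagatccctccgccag
Abca1, chr4:53159896-53160145, minus strand: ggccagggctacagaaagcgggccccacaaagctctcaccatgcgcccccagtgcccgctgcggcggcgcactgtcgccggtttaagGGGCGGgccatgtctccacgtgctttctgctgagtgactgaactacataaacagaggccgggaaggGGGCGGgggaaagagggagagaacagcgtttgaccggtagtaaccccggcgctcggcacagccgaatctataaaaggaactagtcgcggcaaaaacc
RefSeq's promoter table matched 28 of the 33 genes with 38 starts. There, Stard4, Fdft1, Soat2, Fdps and Sqle had no entry. TCACNCCAC occurred at 1 of the 38 starts (2.63%), that of Hmgcs1, 137 bases before the start, against 1.05% of all 32851 starts. CCAAT occurred at 23 starts (60.5%, against 33.8% of all starts) and GGGCGG at 24 (63.2%, against 32.7%). The 3 motifs were kept after matches to a longer set of patterns had been seen, so these shares are no test. Some windows of 1 gene overlap, such as those of Nr1h3 and of Scap, so starts are not separate units. A match describes the letters in this window and is not a bound site.

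The 33 genes are covered by 61 probes, of which 60 were tested. A probe was tested when one genotype was well above background on each array, and 59 of these probes were so for both genotypes. A gene is given by its brightest tested probe, and 14 genes have only 1 probe. Each ratio is on a log2 scale, of knockout over wild type as labelled, taken from the scanner software's processed signals.

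Across the whole array, limma called 80 of 29047 probes at an adjusted p under 0.05 (0.275%), 54 higher and 26 lower. It called 0 of the 60 sterol probes, and at an unadjusted p under 0.05 it found 1 of the 60, against 5.17% of all probes. That probe, a dim one of Fdft1, entered the test through the wild type alone, where it is brighter, and with a filter on both genotypes the count was 0 of 59. No sterol probe differed by 1.5-fold or more on both arrays in one genotype direction, against 0.823% of all probes. Of the 60 sterol probes, 23 (38.3%) were lower on both arrays, where 21.5% of all probes were, and 8 (13.3%) were higher on both, where 20.7% of all probes were. The other 29 (48.3%) differed in sign, where 57.8% of all probes did. By gene, 14 of 33 were lower on both arrays, against 21.1% of all 18988 tested genes, and 3 were higher on both, against 20.2%. The other 16 genes had opposite signs (48.5%, against 58.7% of all tested genes). Of the 33 genes, 9 were of opposite sign and brighter in Cy3 on both arrays (27.3%, against 27.5% of all genes). Another 7 were of opposite sign and brighter in Cy5, against 5921 of all 18988 genes. Taking the signals across arrays, 12 of the 33 genes had both knockout signals below both wild-type signals, against 16.7% of all genes, and 1 (Abca1) had both above, against 12.2%. The median ratio of the 33 genes was -0.07 (-0.06 in replicate 1 and -0.11 in replicate 2), against -0.02 over all tested genes (-0.01 and 0.01).

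**Figure D1:**
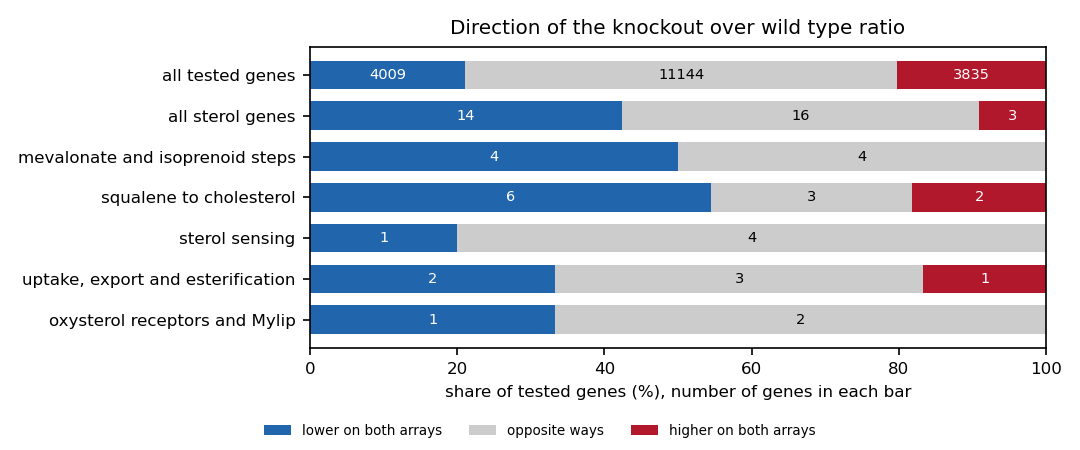
Share of tested genes that were lower on both arrays, higher on both or of opposite sign (horizontal axis, %), for all tested genes, all 33 sterol genes and the 5 roles, with the number of genes written in each bar. Of the sterol genes, 14 were lower on both arrays and 3 higher on both, and the 2 synthesis roles hold 10 of the 14.

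The size of these ratios is small beside their error. All 33 intervals at 95% from limma, each on the brightest probe, include 0, and the median half-width is 0.41, or 1.33-fold. The lowest bound of any gene is -0.81 (1.76-fold lower, Insig1) and the highest is 0.73 (1.66-fold higher, Abca1). The lowest mean, that of Insig1, is reached or passed by 2.33% of all tested genes, and the highest, that of Abca1, by 6.71%. The SD between the arrays had a median of 0.10 for the sterol genes, against 0.19 for all tested genes.

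**Figure D2:**
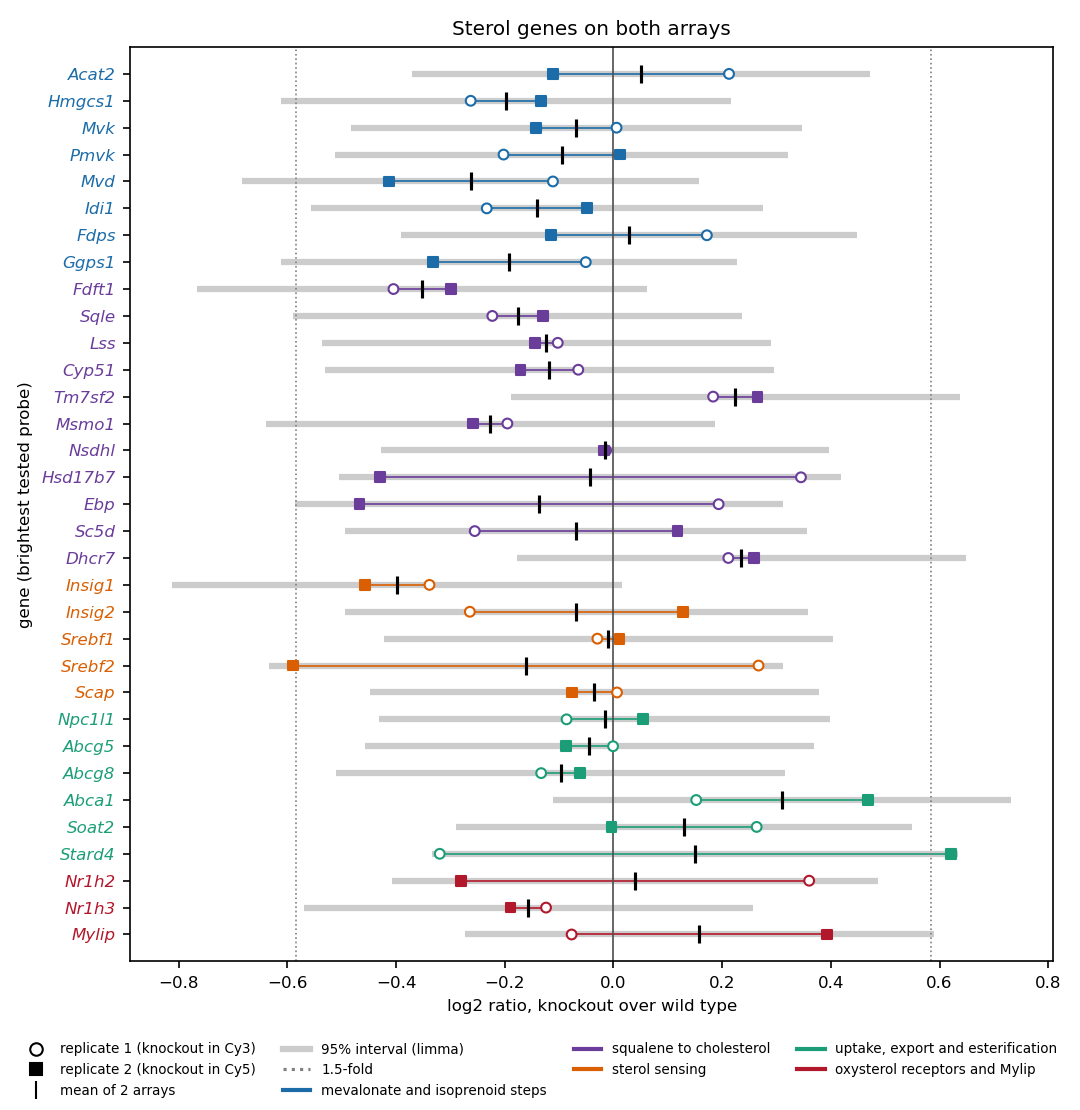
Log2 ratio of knockout over wild type (horizontal axis) for the brightest tested probe of each of the 33 genes, coloured by role. Open circles are replicate 1, filled squares replicate 2, black ticks their mean and grey bars the 95% interval from limma, and the dotted lines mark 1.5-fold. Every grey bar crosses 0, and Insig1 and Fdft1 have the lowest means.

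Of the 8 genes of the mevalonate and isoprenoid steps, 4 were lower on both arrays (Hmgcs1, Mvd, Idi1 and Ggps1) and none was higher on both, with a median of -0.12. Hmgcs1 encodes HMG-CoA synthase. Its brightest probe read processed signals of 27762 and 31412 in the RNA labelled knockout on replicates 1 and 2, against 33308 and 34449 in the RNA labelled wild type. The knockout signal was below the wild-type signal of its own array both times, at log2 ratios of -0.26 and -0.13 (-0.20 ± 0.09). Its other probes disagreed, one at -0.30 ± 0.29 and one at 0.07 ± 0.01. The decarboxylase Mvd, with 1 probe, was at -0.11 and -0.41 (-0.26 ± 0.21), from signals of 703 and 648 against 759 and 863. The isomerase Idi1, which interconverts the isoprenoid units, was at -0.23 and -0.05 (-0.14 ± 0.13), and its second probe, at -0.17 ± 0.28, differed in sign between the arrays. Ggps1, which makes geranylgeranyl diphosphate for protein prenylation, was at -0.05 and -0.33 (-0.19 ± 0.20), and its other 2 probes were at -0.04 ± 0.05 and -0.03 ± 0.02.

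The remaining mevalonate genes differed in sign between arrays. Acat2, the thiolase that joins acetyl-CoA, was at 0.21 and -0.11. Mevalonate kinase, Mvk, was at 0.01 and -0.14, and phosphomevalonate kinase, Pmvk, at -0.20 and 0.01. Both Pmvk probes lie side by side (chromosome 3, 89272679 to 89272738 and 89272739 to 89272798, mm9) and still read opposite ways, replicate 2 giving -0.42 at one and 0.01 at the other. For Fdps, which makes farnesyl diphosphate, the brightest probe gave 0.17 and -0.11, while the other probe was lower on both arrays at -0.41 and -0.15 (-0.28 ± 0.19).

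From squalene to cholesterol, 6 of 11 genes were lower on both arrays (Fdft1, Sqle, Lss, Cyp51, Msmo1 and Nsdhl) and 2 were higher on both (Tm7sf2 and Dhcr7), with a median of -0.12. Fdft1, squalene synthase, commits farnesyl diphosphate to sterols. Its brightest probe (chromosome 14, 63765769 to 63770009, mm9) read 2078 and 2308 in the RNA labelled knockout against 2752 and 2840 in the RNA labelled wild type. The genotypes did not overlap, the highest knockout signal being below the lowest wild-type signal, at ratios of -0.40 and -0.30 (-0.35 ± 0.07, unadjusted p = 0.0898 and adjusted p = 1 by limma). Its second probe (63764562 to 63764621), at -0.37 and -0.86, was the only sterol probe under an unadjusted p of 0.05. Its unadjusted p from limma's fit across all probes was 0.00854, and its adjusted p = 0.468. That probe is dim, at 14.6 and 10.7 against 18.8 and 19.4, and the RNA labelled knockout was well above background on 1 of the 2 arrays, so that it passed the filter through the wild type alone. With normexp and loess its mean was -0.17 in place of -0.61.

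Squalene epoxidase, Sqle, was at -0.22 and -0.13 (-0.18 ± 0.07), from 13407 and 14304 against 15647 and 15650, so that its genotypes did not overlap either. Msmo1, which oxidises the methyl groups of early sterols, read 24616 and 25011 against 28183 and 29928, at -0.20 and -0.26 (-0.23 ± 0.05). Again both knockout signals were below both wild-type signals. Lanosterol synthase, Lss, was at -0.10 and -0.14 with its brightest probe and at 0.11 and -0.36 with another. Its dimmest probe was higher on both arrays at 0.31 and 0.21, but differed in sign with normexp and loess, at 0.16 and -0.14. Cyp51, lanosterol demethylase, was at -0.06 and -0.17 with its brightest probe and at -0.40 and -0.34 with a second one (chromosome 5, 4081471 to 4081530, mm9), which was the lowest probe of this gene. The remaining Cyp51 probe differed in sign, at -0.29 and 0.13. Nsdhl, a dehydrogenase of the demethylation steps, was at -0.01 and -0.02, a ratio near 0, and its 4 probes had means between -0.20 and -0.02.

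Tm7sf2 and Dhcr7 are sterol reductases, and Dhcr7 makes the last reduction of one arm of the pathway. Tm7sf2 read 8883 and 10828 in the RNA labelled knockout against 7823 and 9010, at 0.18 and 0.27. Its genotypes overlapped across arrays, though each knockout signal was above that of its own array's wild type. Dhcr7 was at 0.21 and 0.26 with its brightest probe, from 7970 and 9568 against 6884 and 7997, while its other probe was at 0.19 and -0.23. The remaining late enzymes differed in sign between arrays. Hsd17b7, a sterol ketone reductase, was at 0.35 and -0.43, and the isomerase Ebp at 0.19 and -0.47, both brighter in Cy3 on each array. The second probe of Hsd17b7 was lower on both arrays, at -0.19 and -0.34. The desaturase Sc5d was at -0.26 and 0.12, brighter in Cy5 on each array, and its second probe was lower on both at -0.18 and -0.06. Over all 19 synthesis enzymes, 10 genes were lower on both arrays and 2 higher on both, and of their 38 probes 18 were lower and 4 higher. Probes of 1 gene share their transcripts and are not replicates.

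**Figure D3:**
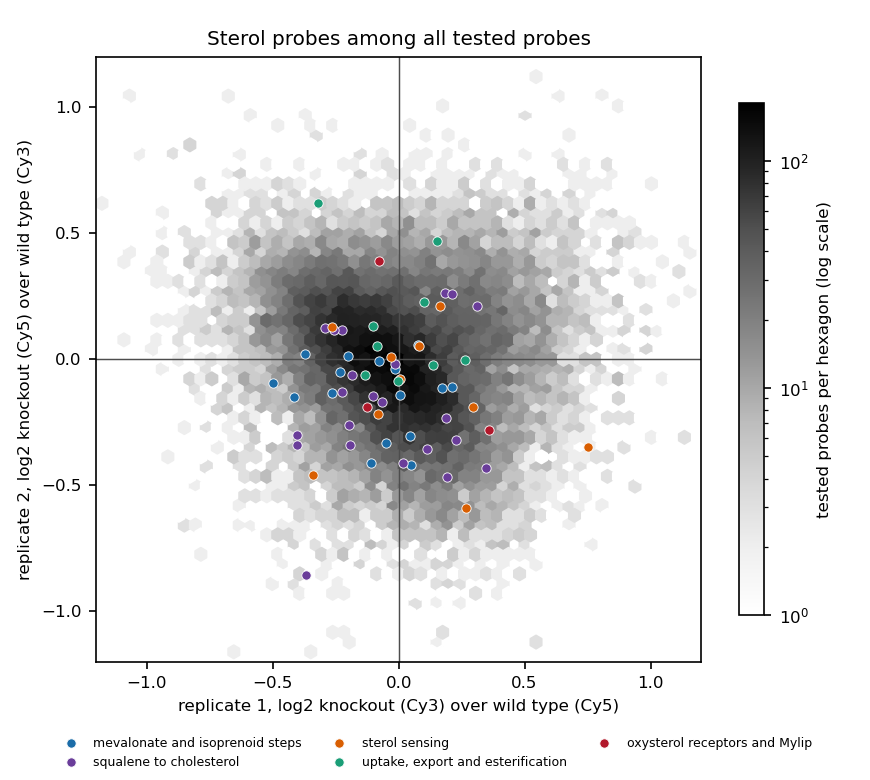
Log2 ratio of knockout over wild type in replicate 1 (horizontal axis) against replicate 2 (vertical axis), with all tested probes as grey hexagons on a log colour scale and the 60 sterol probes as points coloured by role; 239 probes lie beyond the plotted range of 1.2, none of them a sterol probe. More sterol probes lie in the lower left part (23) than in the upper right (8), and the lowest point is the dim Fdft1 probe.

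Of the sensing genes, Insig1 alone was lower on both arrays, and its probe had the lowest brightest-probe mean of all 33 genes. Insig1 holds Scap in the endoplasmic reticulum and is itself a target of SREBP. It read 161 and 159 in the RNA labelled knockout against 204 and 218 in the RNA labelled wild type, at -0.34 and -0.46 (-0.40 ± 0.08, 95% interval -0.81 to 0.02, unadjusted p = 0.0583 and adjusted p = 1 by limma). The genotypes did not overlap. A second Insig1 probe was at -0.08 and -0.22 (-0.15 ± 0.10), lower on both arrays and less so. Its paralogue Insig2 was at -0.26 and 0.13 with its brightest probe and at 0.16 and 0.21 with the other, so that the probes gave no common direction.

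The genes of the SREBP machinery itself showed no common direction. Srebf1, which encodes the form that mainly drives fatty acid synthesis, was at -0.03 and 0.01, and Scap at 0.01 and -0.08. Srebf2 encodes the form that mainly drives cholesterol synthesis. Its 4 probes had means of -0.16, 0.05, 0.07 and 0.20. The brightest read 20432 and 13584 in the RNA labelled knockout against 16981 and 20434, at 0.27 and -0.59, higher than wild type on one array and lower on the other. Of the 4 probes, 3 were brighter in Cy3 on each array, and the fourth was near 0 at 0.08 and 0.05. The median over the 5 sensing genes was -0.07 by the brightest probe and -0.01 by the mean over the probes of a gene.

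Among genes of uptake, export and esterification, Abca1 stood highest. Abca1 loads cholesterol onto apolipoprotein particles at the basolateral side of enterocytes. It read 2588 and 3378 in the RNA labelled knockout against 2329 and 2441 in the RNA labelled wild type, at 0.15 and 0.47 (0.31 ± 0.22, 95% interval -0.11 to 0.73, adjusted p = 1 by limma). Both knockout signals were above both wild-type signals, and the array with the knockout in Cy5 gave the larger ratio. The transporters of the gut lumen were near 0. Npc1l1, the uptake protein, was at -0.09 and 0.05 (-0.02 ± 0.10). Abcg5 and Abcg8 form a dimer that returns sterols to the lumen, and they were at -0.04 ± 0.06 and -0.10 ± 0.05, both lower on both arrays, although Abcg5 was only at -0.000801 in replicate 1. A dimmer Abcg8 probe differed in sign, at -0.10 and 0.13.

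Soat2, which esterifies cholesterol for chylomicrons, was at 0.26 in replicate 1 and at -0.00365 in replicate 2. Stard4 carries sterol between membranes and is a target of SREBP. Its brightest probe had the widest gap between arrays of the 33 genes, at -0.32 and 0.62, from 10260 and 13680 against 12806 and 8894. Its other 2 probes were at 0.06 ± 0.11 and 0.16 ± 0.09. The median over the 6 genes of this role was 0.06.

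The oxysterol receptors gave no common direction. Nr1h3, which encodes LXR alpha, was lower on both arrays at -0.12 and -0.19 (-0.16 ± 0.05). Nr1h2, which encodes LXR beta, was at 0.36 and -0.28, brighter in Cy3 on each array. Mylip, an LXR target whose product marks lipoprotein receptors for breakdown, was at -0.08 and 0.39. The untested Mylip probe (chromosome 13, 45503808 to 45503867, mm9) was well above background on no array for the RNA labelled knockout and on 1 array for the RNA labelled wild type, at 9.5 and 7.25 against 14.5 and 14.7.

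The 5 genes with arrays more than 0.5 apart were Hsd17b7, Ebp, Srebf2, Stard4 and Nr1h2, and all but Stard4 were brighter in Cy3 on both arrays. Of the 18 genes with several tested probes, 11 had means of 1 sign at all probes and 7 had both signs (Hmgcs1, Fdps, Lss, Dhcr7, Insig2, Srebf2 and Abcg8). The probes of a gene spanned a median of 0.24.

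**Figure D4:**
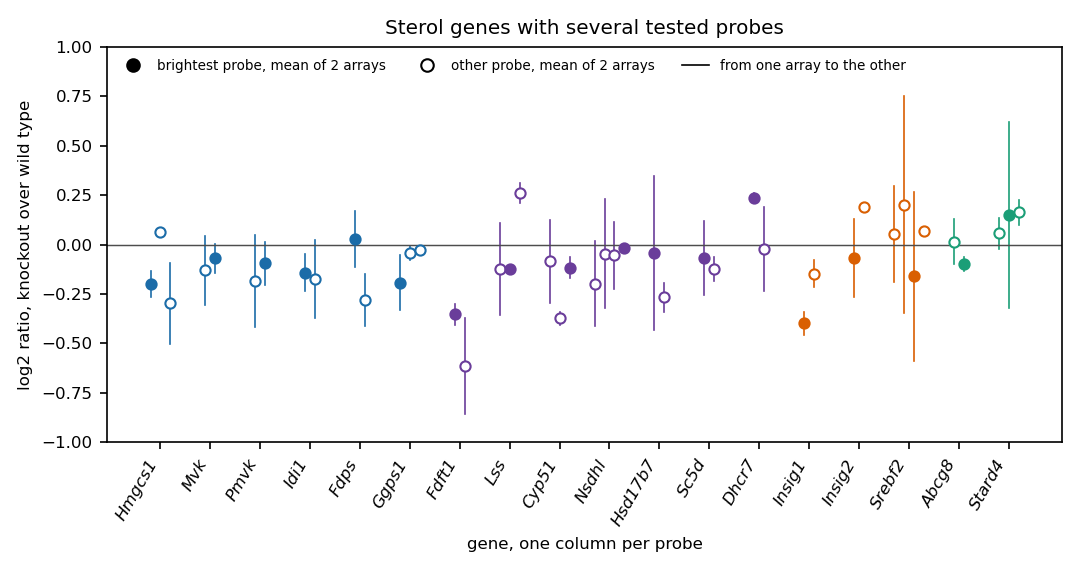
Mean log2 ratio of knockout over wild type (vertical axis) of each tested probe of the 18 genes with several probes, with filled circles for the brightest probe, open circles for the others and lines from one array to the other. All probes of Fdft1, Cyp51 and Insig1 have means below 0, while those of Hmgcs1, Lss and Insig2 fall on both sides.

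Other genes of the pathway, chosen by name with earlier results of these data known, gave as few calls. Of 63 such genes, 60 were tested, 0 were called by limma and 1 had an unadjusted p under 0.05. Of all 18988 tested genes, limma called 51, and 937 had an unadjusted p under 0.05. Lower on both arrays were 15% of the 60, against 21.1% of all tested genes. Higher on both were 16.7%, against 20.2%. Among 14 branch and cofactor enzymes, 3 were lower on both arrays and none higher, with a median of -0.03. Coq2, an enzyme of ubiquinone synthesis, was at -0.03 and -0.03, and Acat1, the mitochondrial thiolase, at -0.17 and -0.01 (-0.09 ± 0.11). Among 13 genes of SREBP cleavage and fatty acid synthesis, 4 were lower and 3 higher on both arrays, with a median of -0.02. Acaca, the carboxylase that opens fatty acid synthesis, was at -0.22 ± 0.17 and Fasn at -0.10 ± 0.11. The protease gene Mbtps1, which makes the first cut of SREBP, was at 0.21 ± 0.15, and the SREBP target Pnpla3 at 0.30 ± 0.23.

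Among 21 genes of sterol movement, storage and hydrolysis, 5 were higher and 2 lower on both arrays, with a median of 0.02. The higher ones included Abcg1, an LXR target that exports sterols, at 0.23 ± 0.18, Mttp, which loads lipid onto apolipoprotein B, at 0.19 ± 0.13, and the lysosomal lipase Lipa at 0.14 ± 0.11. The sterol ester hydrolase gene Nceh1 was at -0.23 ± 0.24 and Stard5 at -0.16 ± 0.06. Among 12 genes of oxysterol formation and LXR partners, 2 were higher on both arrays, Nr0b2 at 0.36 ± 0.17 and Cyp27a1 at 0.13 ± 0.12, and none was lower on both, with a median of -0.01.

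Normalization moved several of these ratios. With the background corrected by normexp and the dyes normalized by loess, 14 genes were lower on both arrays, 11 of which were so with the processed signals too, and 5 were higher on both. Insig1 was then at -0.31 ± 0.06, Fdft1 at -0.33 ± 0.12, Msmo1 at -0.24 ± 0.01 and Abca1 at 0.36 ± 0.06, while the means of Hsd17b7, Sc5d and Srebf1 had the other sign. The correlation of the 2 arrays' ratios across all tested probes was -0.01 with the processed signals and -0.38 with normexp and loess (Pearson, across probes, which are not independent replicates). Nr1h3, lower on both arrays with the processed signals, was at 0.35 and -0.52 with normexp and loess, and Mvk was then at -0.02 and -0.03. With normexp and loess, limma called 0 of the 60 sterol probes, but it called 0 of all 29047 probes as well, with 353 at an unadjusted p under 0.05, none of them a sterol probe.

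**Figure D5:**
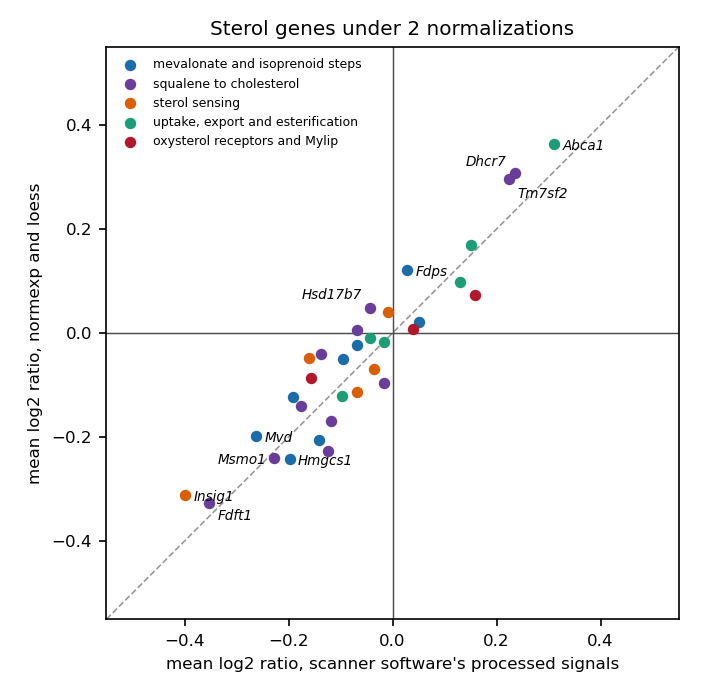
Mean log2 ratio of knockout over wild type of the 33 genes, with the scanner software's processed signals (horizontal axis) against normexp and loess (vertical axis), coloured by role, with a dashed line where both would be equal. Insig1 and Fdft1 stay lowest and Abca1 highest under both.

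The labels and the tissue were checked on the same arrays. Gpcpd1 itself read higher in the RNA labelled knockout at 3 of its 4 probes, with means of 0.45, 0.82, -0.12 and 0.63 (adjusted p between 0.130 and 1 by limma). A probe outside the deleted part checks nothing, and whether any of these probes lies inside it is not known. The directions given here rest on the dye labels alone, and exchanged labels would reverse each of them. Whether the labels were exchanged was not tested. All 9 enterocyte markers were well above background, and 2 were called higher in the RNA labelled knockout, Lct (1.69 ± 0.03) and Fabp1 (1.30 ± 0.13). Of the other 7, Fabp2 was higher on both arrays, Sis was lower on both and 5 were of opposite sign, and the list had a median of 0.01. The summed signal of the 9 was 775885 and 760112 in the RNA labelled knockout and 652110 and 735320 in the RNA labelled wild type. Of 5 skeletal muscle markers, 3 were called higher (Myh4, Tnnc2 and Tnni2), with a summed signal of 4576 and 4399 against 2592 and 2567. Of the other 2, Acta1 was at -0.14 and -0.04 and Ckm at 0.28 and -0.17. None of these 5 marker calls held with normexp and loess, where no probe of the array was called. Paneth cell markers were lower on both arrays at 3 of 3 tested genes, none called, with a summed signal of 382533 and 359926 against 523016 and 481284. Lymphocyte markers were higher on both at 4 of 6, none called. Smooth muscle, goblet and crypt markers had medians of -0.02, 0.05 and -0.01, none called. Of the 5 smooth muscle markers, 1 was lower on both arrays and 4 were of opposite sign. Goblet markers were higher on both at 2 of 4 and of opposite sign at 2, and all 4 crypt markers were of opposite sign. Adipocyte markers were lower on both at 2 of 5 and of opposite sign at 3, none called. Their summed signal was 31745 and 29098 against 37603 and 37969. Their means ran from -0.46 ± 0.13 (Cfd) to 0.14 ± 0.46 (Lep). Hepatocyte markers were lower on both at 2 of 4 tested genes, higher on both at 1 and of opposite sign at 1, none called. Their summed signal was 1276 and 1317 against 1604 and 1751. Their means ran from -0.47 ± 0.08 (Cyp2e1) to 0.26 ± 0.47 (Ttr). The part of these cell types in the sterol ratios was not tested.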

How the data were processed

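Processed intensity values in Cy3 and Cy5, as the authors deposited them, come, per the file headers, from Agilent Feature Extraction 11.5.1.1 (the submitters' processing notes name 9.5), background-subtracted, detrended over the surface and dye-normalized. The deposited scanner output also gives the log10 ratio of Cy5 over Cy3. The authors' deposited value table holds the same log10 ratios, rounded. Each array of design 014868 had 43379 gene spots, for 41174 probes; on replicates 1 and 2, the software marked 75.3% and 70.3% of spots as well above background for the knockout and 69.3% and 76.1% for the wild type, and no spot was saturated. Over 245 probes printed 10 times, log2 ratios had a median SD of 0.17 on each array.

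Log10 ratios were turned to knockout over wild type, put on a log2 scale and averaged over the spots of a probe. Spots with feature outlier marks or non-uniform background were left out (133 and 222). Whether marks of the local background population should count was decided after values had been seen, and leaving those spots out too is an alternative. A probe entered when at least a share of 0.5 of its spots was well above background on each array, for one and the same genotype. The mean was tested against 0 with limma 3.58.1 in R 4.3.3 (lmFit and eBayes, 1 residual and 14.7 prior degrees of freedom, no dye term), with Benjamini-Hochberg adjustment over all 29047 probes at 0.05.

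The members, roles, other pathway genes, markers and alternatives were chosen with earlier results of these data known. All members are named, and of each other list up to 3 genes per direction, ranked by whichever array gave the ratio nearer 0 (1 gene that this rule names is not reported here); markers were named after their values were seen. The 3 motifs were kept, and the promoters to print chosen, after matches to a longer set of letter patterns and the ratios had been seen. Probe coordinates are those of the design on mm9; exon annotation of that build was not used here. Alternatives were normexp (offset 50) with loess or with median centring, removal of a surface over rows and columns, a further loess over intensity, no filter, a filter on both genotypes, marked spots kept, the deposited table, the mean over probes and leaving out each array.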

Additional observations from a re-analysis of the deposited data

How the results depend on the processing

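No sterol probe was called by limma in any of the 10 fits. With normexp and loess, with normexp and median centring and with no filter, 0 probes were called on the whole array, so those fits say nothing about the sterol genes; in the other 7 fits, 51 to 154 probes were called. Over the 10 fits the smallest adjusted p of a sterol probe by limma ran from 0.357 to 1. The number of sterol probes at an unadjusted p under 0.05 ran from 0 to 6. The 6 were of 61 sterol probes with no filter, where 2407 of all 41114 probes were under 0.05. With a surface removed the count was 2 of 60, against 1646 of all 29047 probes, and in every other fit it was at most 1. Over the 10 alternatives other than leaving out an array, 25 of the 33 genes kept the sign of their mean, 18 lower and 7 higher, while Fdps, Lss, Hsd17b7, Sc5d, Insig2, Srebf1, Srebf2 and Nr1h2 had the other sign in at least 1. Several of these alternatives add nothing to that count. With no filter, a filter on both genotypes or marked spots kept, every gene's mean equalled the reported one. The deposited table holds the reported ratios, rounded. With normexp and loess, 5 genes were higher on both arrays, and the medians were -0.086 for the mevalonate genes, -0.016 for branch enzymes and 0.012 for oxysterol formation and LXR partners. With normexp and median centring, 1 gene was higher on both arrays, and the medians were -0.105 for the 33 genes, -0.125 for sensing, 0.0020 for uptake and export, -0.066 for branch enzymes and -0.028 for oxysterol formation and LXR partners. Without a filter on dim probes, 1 sterol probe was 1.5-fold apart on both arrays. It was the dim Mylip probe, well above background only on 1 array and only for the RNA labelled wild type. With spots marked for their local background population left out too, an alternative chosen after seeing the data, 54 sterol probes of 30 genes were tested (Insig2, Npc1l1 and Abcg5 were lost) and the uptake and export median was 0.14. With the mean over the probes of a gene, the sensing median was -0.0092. The cause of these moves was not tested, apart from the number of genes or probes that a filter changes. A single array gave medians of -0.111 and -0.065 for the 33 genes, -0.124 and -0.081 for mevalonate genes, -0.145 and -0.065 for squalene to cholesterol, -0.077 and -0.030 for sensing, 0.025 and -0.044 for uptake and export, and -0.190 and -0.077 for oxysterol receptors and Mylip, the first without replicate 1 and the second without replicate 2. In the same order it gave -0.0088 and -0.019 for branch enzymes, -0.044 and 0.056 for SREBP cleavage and fatty acid genes, -0.046 and 0.067 for sterol movement, and 0.037 and 0.060 for oxysterol formation and LXR partners. Without replicate 1, 9 genes had the other sign, and 7 without replicate 2; one array leaves no residual degree of freedom and no test. No paired analysis was possible because none remained to be added: each ratio already pairs the genotypes within an array, and the test against 0 uses that pairing. Dim probes limit what is known of the second Mylip and Fdft1 probes.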
